A study of Ecsenius pulcher with 24 samples.

Results

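The 100 most abundant features in tail muscle were described in 24 fish of *Ecsenius pulcher*, a blenny that lives on coral reefs. A feature is an assembly gene, a cluster of transcripts with 1 ID, and the members are the 100 of 518956 features with the highest mean CPM (the feature's estimated count divided by the library's total, times 1000000) over all 24 libraries. The levels themselves chose the members, so their abundance is a description and not a finding. All 100 passed the count filter that left 65664 features for testing.

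Polyadenylated RNA of a cross section of the front of the tail, trimmed of skin, was sequenced from 6 fish in each of 4 groups. Acute hypoxic fish were sampled while oxygen was low, along a profile recorded on local reefs, and acute control fish were sampled at the matching time without hypoxia. Post hypoxic fish were sampled after oxygen had returned and the fish had recovered, and post control fish were sampled at that time without any hypoxia. Library totals were 31085706 to 43603403 counts. The libraries of the acute and the post time points also carry different styles of library name, so the time point and anything else that separates these sets of libraries cannot be told apart.

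In fish, the trunk and tail are mostly skeletal muscle, whose messenger RNA is known to be dominated by a small set of genes. These encode filament proteins such as actins, myosins, troponins and tropomyosins, the calcium buffer parvalbumin, the calcium pump of the sarcoplasmic reticulum, creatine kinase and the enzymes of glycolysis. The files do not pair the feature IDs with gene names, so no member can be assigned to any of these roles, the tissue label could not be checked against marker genes, and no sequence is shown. Feature lengths are also not given, so a higher CPM means a larger share of the counts and not more molecules. In whole tissue, fewer cells of a type and less RNA per cell cannot be told apart.

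The 100 members took between 22.9% and 55.0% of all counts of a library, with a median of 34.1%. In acute controls the lowest, median and highest shares were 31.3%, 44.9% and 55.0%, with a mean of 45.4 ± 8.93% (SD, n = 6). In acute hypoxic fish they were 23.7%, 40.9% and 49.2%, with a mean of 39.6 ± 9.78% (SD, n = 6). The acute groups overlapped broadly, and the lowest acute hypoxic fish, replicate 1, lay below every acute control. In post controls the lowest, median and highest shares were 22.9%, 30.3% and 41.5%, with a mean of 31.5 ± 8.35% (SD, n = 6). In post hypoxic fish they were 29.4%, 30.3% and 33.6%, with a mean of 30.97 ± 1.83% (SD, n = 6). The post hypoxic fish lay close together and inside the range of the post controls. No p-value is given for a share, because it is a sum over features chosen by their level.

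**Figure D1:**
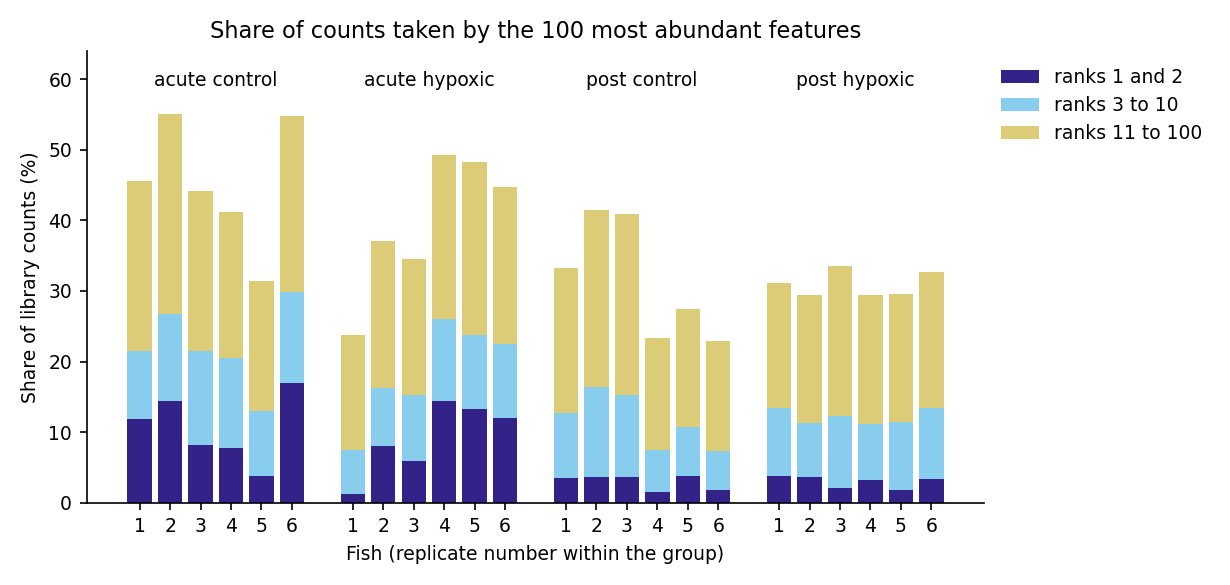
Stacked bars give the share of library counts, in percent, taken by the members of ranks 1 and 2, 3 to 10 and 11 to 100 in each of the 24 fish, grouped by time point and treatment. The summed share ran from 22.9% to 55.0%, and the part that differed most between the time points was that of ranks 1 and 2.

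Much of the difference between the time points lay in the top 2 features. Together they held 3.81% to 17.0% of the counts of acute controls (median 10.1%) and 1.21% to 14.3% of those of acute hypoxic fish (median 9.98%). They held 1.55% to 3.78% of the counts of post controls (median 3.61%) and 1.84% to 3.84% of those of post hypoxic fish (median 3.34%). Ranks 11 to 100 moved less, with medians of 23.5% in acute controls, 21.5% in acute hypoxic fish, 18.6% in post control fish and 18.2% in post hypoxic fish.

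The counts fell off steeply with rank. TRINITY_DN132_c0_g1, the most abundant feature, averaged 32057 CPM and TRINITY_DN1186_c1_g2 averaged 32017 CPM. TRINITY_DN145_c0_g1 and TRINITY_DN14_c8_g1 followed at 18228 and 17519 CPM. Ranks 5 to 9 had means between 10105 and 10760 CPM, namely TRINITY_DN691_c3_g1, TRINITY_DN7199_c3_g1, TRINITY_DN596_c0_g1, TRINITY_DN13348_c3_g1 and TRINITY_DN561_c1_g2. Only 9 features thus exceeded 1% of the counts on average, and rank 1 stood 40.3 times above rank 100. At the threshold, TRINITY_DN8814_c0_g1, TRINITY_DN1344_c0_g1 and TRINITY_DN4975_c2_g1 (ranks 98 to 100) averaged 814.1, 807.1 and 794.8 CPM. Just outside it, TRINITY_DN15198_c0_g1, TRINITY_DN13515_c2_g1 and TRINITY_DN2590_c0_g2 followed, in that order, at 792.7, 785.2 and 775.9 CPM on average, so no gap separates the members from the next features.

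Most members were among the 100 highest of all 4 groups, but single fish departed from the list. Of the 100 members, 72 were also among the 100 highest of every group by mean CPM, 15 of 3 groups, 12 of 2 groups and 1 of 1 group. The members were chosen by their mean over these same fish, so much of this overlap follows from the choice. Within single libraries 35 members were among the 100 highest in all 24 fish, and 96 were among the 1000 highest in all 24. A library's own 100 highest features included 66 to 90 of the members, and the lowest of these counts belonged to acute hypoxic replicate 1. By group mean the order at the top differed with time point. TRINITY_DN132_c0_g1 and TRINITY_DN1186_c1_g2 were the top 2 in both acute groups, whereas TRINITY_DN145_c0_g1 and TRINITY_DN14_c8_g1 were the top 2 in both post groups. Some single fish had the other order. TRINITY_DN132_c0_g1 lay below TRINITY_DN145_c0_g1 in acute control replicate 5 (19317 against 23676 CPM) and above it in post control replicate 5 (18750 against 14689 CPM).

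Acute hypoxic replicate 1 stood apart from the other libraries in many members. By CPM it held the lowest value of all 24 fish for 38 members and the highest for 13. It was not the only such library. Acute control replicate 2 held the highest value for 27 members and the lowest for 6, and acute control replicate 1 held the lowest for 17. TRINITY_DN13704_c0_g1, rank 10, ranged from 201.8 CPM in acute hypoxic replicate 1 to 27319 CPM in acute control replicate 2, a ratio of 135. On the other side, TRINITY_DN561_c1_g2 reached its highest value, 19853 CPM, in acute hypoxic replicate 1, against 9384 CPM for the median acute hypoxic fish. Several of the results that involve this fish are given below with and without it.

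For comparisons between fish, CPM was rescaled by the TMM factors of edgeR (a trimmed mean of log ratios between libraries), and this scale is called scaled CPM. The factor was 0.592 to 1.41. Acute control replicate 2, where the members took the most counts, had the lowest factor, and post control replicate 6, where they took the fewest, had a factor of 1.38. The members' own share is therefore part of what the scaling moves. Values on library totals alone are given for many results, but not for the fold changes of single members. The mean factor was 0.847 in acute controls and 1.15 in post controls. Between these groups, post minus acute, the members' median log2 fold change was -0.48 on scaled CPM and -0.16 on library totals.

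The median spread between fish of the same group was larger for the members than for the features ranked next. The pooled within-group SD of log2 scaled CPM (20 degrees of freedom) had a median of 0.743 over the members, with quartiles of 0.513 and 1.06. It was 0.568 over the next 100 features by rank, 0.553 over the 800 after those and 0.663 over all features tested. An SD above 1 was found for 27 of the 100 members, against 11 of the next 100 features and 17.5% of all features tested. On library totals the median SD was 0.602 for the members, 0.481 for the next 100 and 0.722 for all features tested, so the members lay above the next ranks on both scales but above all features only on scaled CPM. No test was made of these differences, since features of a fish are not independent.

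On scaled CPM the spread differed between the groups. In post hypoxic fish the median SD of the members was 0.413, below the 0.632 of all features tested. In post controls it was 0.831 against 0.704, and in acute controls 0.641 against 0.508. In acute hypoxic fish it was 0.719 against 0.521, and without replicate 1 it was 0.432 against 0.430. The excess over all features in acute hypoxic fish was thus found only with that fish included. The TMM factors varied more among post controls (SD 0.29) than among post hypoxic fish (SD 0.0667). How much of the difference in spread between the post groups came from the scaling was not tested. The spread by group was not taken on library totals, nor with a post fish left out.

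The widest spread belonged to TRINITY_DN13704_c0_g1 (SD 2.02), TRINITY_DN58_c0_g1 (2.01) and TRINITY_DN12424_c0_g1 (1.88), and these 3 were also the widest on library totals. For TRINITY_DN13704_c0_g1 the lowest, median and highest scaled CPM were 586, 20328 and 46338 in acute control fish, and 174, 15187 and 23771 in acute hypoxic fish. They were 830, 2269 and 14951 in post control fish, and 1808, 3010 and 8307 in post hypoxic fish. The medians were higher at the acute time point, but each acute group also held a fish below every post fish. In acute controls that fish was replicate 5, and in acute hypoxic fish it was replicate 1. The other 5 acute hypoxic fish lay between 5484 and 23771 scaled CPM.

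On scaled CPM the narrowest spread belonged to TRINITY_DN140448_c4_g1 (SD 0.265), TRINITY_DN526_c0_g2 (0.291) and TRINITY_DN3992_c0_g1 (0.357). On library totals TRINITY_DN596_c0_g1 (0.219), TRINITY_DN14080_c2_g1 (0.243) and TRINITY_DN44563_c0_g1 (0.262) were the narrowest, TRINITY_DN140448_c4_g1 had 0.309 and TRINITY_DN526_c0_g2 had 0.436. For TRINITY_DN140448_c4_g1 the lowest, median and highest scaled CPM were 799, 854 and 1049 in acute control fish, and 578, 856 and 1149 in acute hypoxic fish. They were 833, 930 and 1173 in post control fish, and 648, 920 and 1382 in post hypoxic fish. All 4 groups overlapped, and the group means lay between 857 and 957 scaled CPM.

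**Figure D2:**
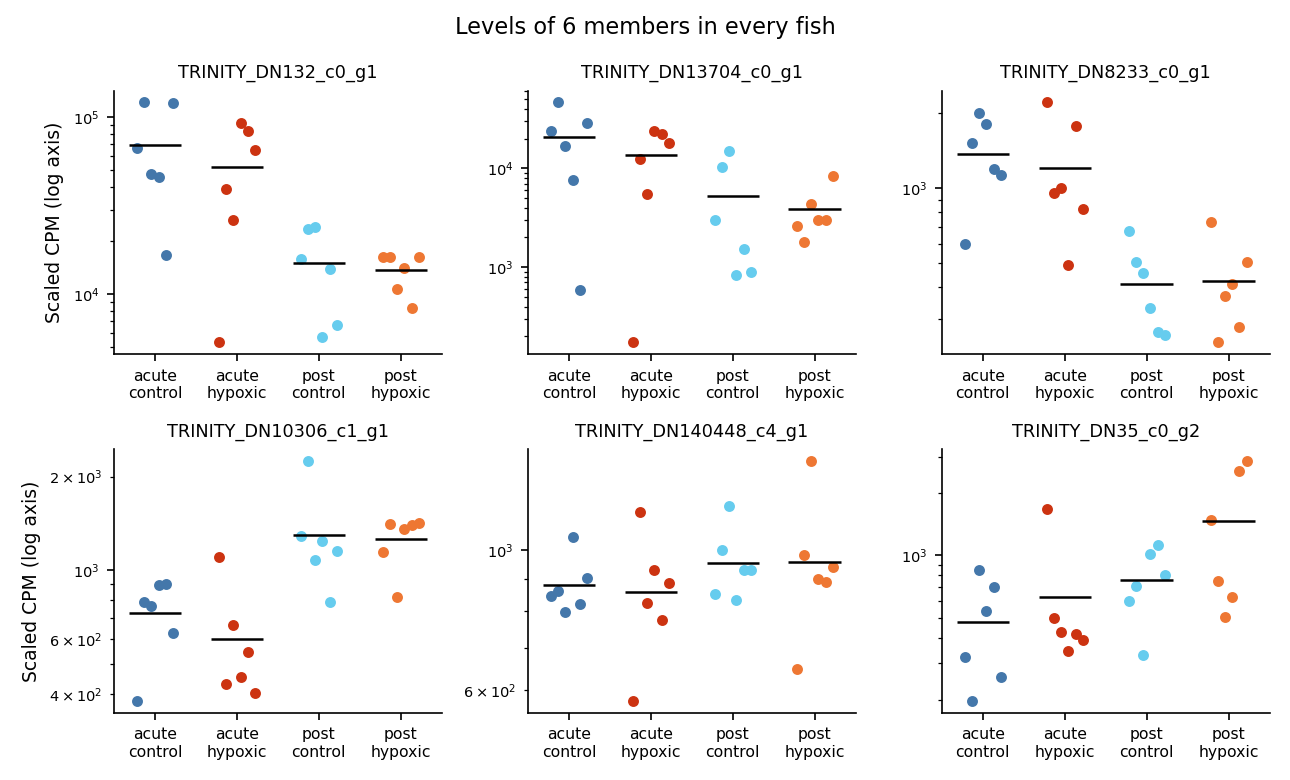
Scaled CPM on a log axis of 6 members in each of the 24 fish, by group. TRINITY_DN13704_c0_g1 spans from 174 to 46338 scaled CPM, TRINITY_DN140448_c4_g1 stays between 578 and 1382, and TRINITY_DN132_c0_g1 and TRINITY_DN8233_c0_g1 lie lower in most post fish than in most acute fish.

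Many members rose and fell together from fish to fish. After the group means were removed, the Pearson correlation of log2 scaled CPM over the 24 fish had a median of 0.495 over the 4950 pairs of members, with quartiles of 0.062 and 0.731. Over pairs of the next 100 features by rank the median was 0.375, and r was above 0.8 in 17.4% of the pairs of members against 9.56% of those pairs. A single axis held 71.0% of the members' variance and 48.8% of that of the next 100. The points share libraries and scaling factors, and on library totals the medians were 0.149 and 0.080, so the size of the correlation depends on the scaling. Without acute hypoxic replicate 1 the median was 0.548 for the members and 0.445 for the next 100. The single axis then held 70.2% and 54.0% of their variance.

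An average-linkage tree of these correlations, divided where the mean r was 0.3 after the values had been seen, gave groups of 71, 21 and 8 members. The median r within them was 0.716, 0.594 and 0.696, and on library totals 0.397, 0.686 and 0.681. Between the first and second group it was 0.03, between the first and the third group 0.14, and between the second and the third group -0.45. Without acute hypoxic replicate 1 these values were 0.24, -0.14 and -0.19. The negative correlation of the second with the third group was thus weaker without that fish, and that of the first with the third group changed sign. On library totals the 3 values between groups were -0.25, -0.12 and -0.28. The first group includes ranks 1 to 8 and 10, the second includes TRINITY_DN561_c1_g2 and TRINITY_DN526_c0_g2, and the third includes TRINITY_DN140448_c4_g1.

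The first group carried most of the difference in share between the time points. Its members held 39.5 ± 10.6% of the counts in acute control fish and 32.2 ± 11.7% in acute hypoxic fish, against 23.4 ± 9.10% in post control fish and 22.7 ± 2.55% in post hypoxic fish (SD, n = 6 each). The second group held 3.95 ± 1.61%, 4.43 ± 2.96%, 4.25 ± 0.756% and 4.57 ± 0.731% in the same order. The third held 1.95 ± 0.796%, 2.93 ± 1.38%, 3.91 ± 0.875% and 3.67 ± 1.46%. Because the groups were made from these same fish, no test of them was made.

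With TRINITY_DN132_c0_g1, 25 other members correlated at r above 0.8, 80 at r above 0 and 5 at r under -0.5. On library totals these counts were 17, 66 and 20. On scaled CPM without acute hypoxic replicate 1, 23 members had r above 0.8 and 0 had r under -0.5. The strongest was TRINITY_DN1186_c1_g2 (r 0.9997). On scaled CPM the most negative was TRINITY_DN35_c0_g2, with r -0.64 over 24 fish and -0.50 without acute hypoxic replicate 1. On library totals its r was -0.67, and the most negative were TRINITY_DN526_c0_g1 at -0.88 and TRINITY_DN526_c0_g2 at -0.86. On scaled CPM these had r -0.52 and -0.56 over 24 fish, and -0.07 and -0.20 without acute hypoxic replicate 1. The r with rank 1 on library totals was not taken without that fish. For TRINITY_DN35_c0_g2 the lowest, median and highest scaled CPM were 198, 431 and 851 in acute control fish, and 345, 419 and 1679 in acute hypoxic fish. They were 330, 757 and 1126 in post control fish, and 500, 1122 and 2868 in post hypoxic fish. The 1679 of the acute hypoxic fish was replicate 1, the fish in which TRINITY_DN132_c0_g1 was lowest.

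**Figure D3:**
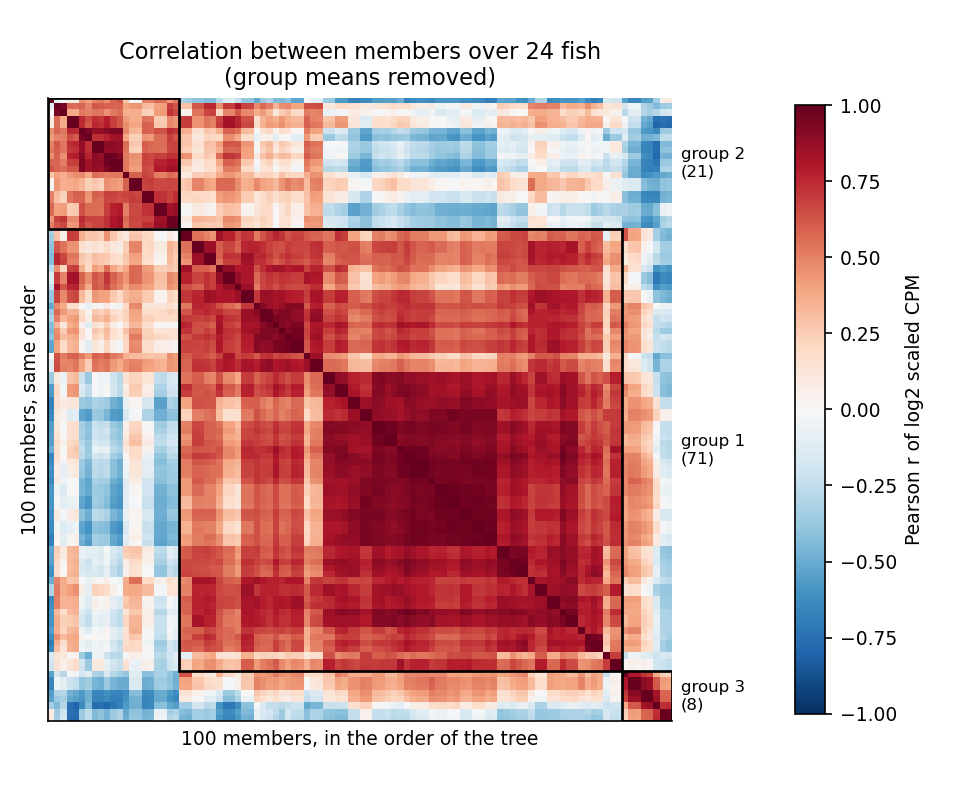
Heat map of the Pearson correlation of log2 scaled CPM between the 100 members over 24 fish after the group means were removed, ordered by the tree, with the groups of 71, 21 and 8 members marked. The large block has a median r of 0.716 within itself and 0.03 with the block of 21.

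Most members came as pairs with an almost fixed ratio. A matching pair was defined as 2 members whose log2 ratio of CPM had an SD under 0.1 over the 24 libraries. There were 32 such pairs with 64 different members, which together held 24.5% of the counts on average, of the 36.9% held by all 100. In 26 pairs the mean ratio was within 1.1 times of 1. The mean ratio ran from 1.00 to 1.91 with a median of 1.05. The r within a pair was at least 0.978, which follows largely from the definition.

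The IDs give only part of this pairing. In 8 pairs both IDs belong to 1 assembly component, and in 24 they do not. Ranks 1 and 2 form a pair from different components: TRINITY_DN132_c0_g1 was 1.02 times TRINITY_DN1186_c1_g2 on average and between 0.979 and 1.08 times in every fish, although both differed 13.6-fold or more between fish. The steadiest pair was TRINITY_DN691_c3_g1 with TRINITY_DN13348_c3_g1 (SD of the log2 ratio 0.018, ratio 1.00 to 1.05), also from different components. The next were TRINITY_DN1689_c1_g1 with TRINITY_DN15743_c0_g1 (SD 0.018, ratio at least 1.05 in every fish), TRINITY_DN24786_c0_g1 with TRINITY_DN24786_c0_g2 (SD 0.023) and TRINITY_DN12866_c0_g1 with TRINITY_DN12866_c0_g2 (SD 0.023). TRINITY_DN12822_c0_g3 with TRINITY_DN12822_c0_g1 followed (SD 0.024). In 13 pairs the same member was the higher in all 24 fish. TRINITY_DN12822_c0_g3 was the higher in 23, all but post hypoxic replicate 4, where it had 692 scaled CPM against 712. The lowest ratio of several other pairs also lay in that library, in which every value of the members was whole. Whether this moved the ratios within pairs was not tested.

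Pairing was not particular to the very top of the list. The next 100 features by rank also held 31 matching pairs, and 4 of the 36 unpaired members had a partner just outside the list, such as TRINITY_DN140448_c4_g1 with TRINITY_DN2590_c0_g2. The members of a pair moved alike in every comparison, with log2 fold changes that differed by at most 0.13. That follows largely from the definition of a pair, which asks for a steady ratio over these same libraries. Where 2 features share reads, an estimated count depends on how the estimation divided those reads, so the levels of paired members are uncertain one by one. The 100 members amount to 68 separate units once pairs are joined, and paired members are not independent of each other.

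**Figure D4:**
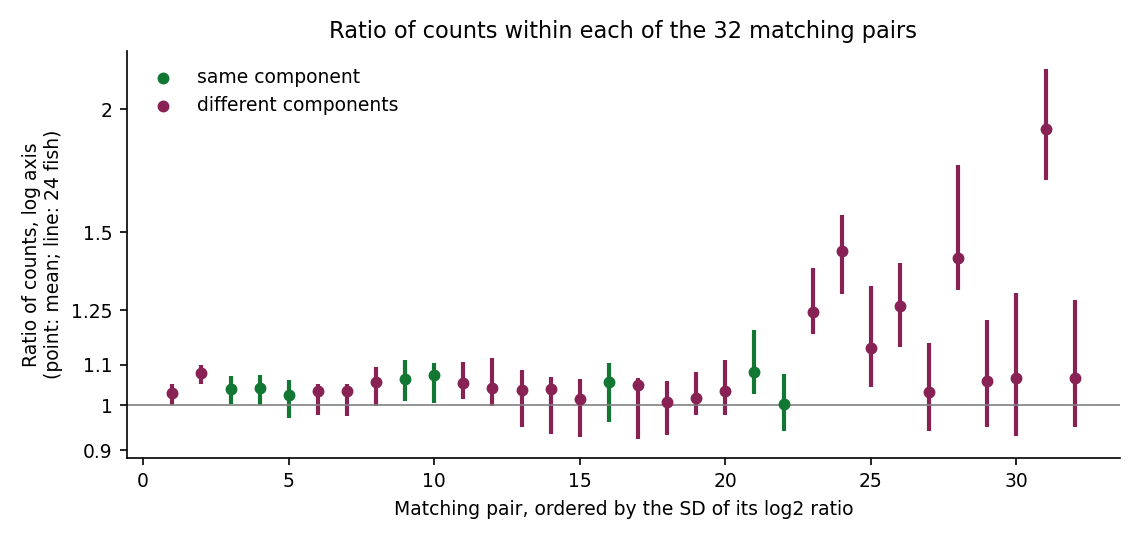
Ratio of counts within each of the 32 matching pairs on a log axis, with the mean as a point and the range over 24 fish as a line, ordered by the SD of the log2 ratio and coloured by whether both IDs belong to 1 assembly component. Means run from 1.00 to 1.91, and the means of the 8 pairs within 1 component are all within 1.1 times of 1.

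The acute comparison asked whether the most abundant features differed while oxygen was low. None of the 100 members was called (edgeR quasi-likelihood test, adjusted p under 0.05), against 0.0213% of all features tested, and 0 were past an unadjusted p of 0.05, against 3.6% of all. DESeq2 also called 0, against 0.104% of all features, with 4 past an unadjusted p of 0.05, against 4.43% of all. The log2 fold changes, hypoxic minus control, had a median of -0.42, against 0.02 over all features tested and -0.29 over the next 100 by rank. They lay below 0 for 81 members, against 47.6% of all features and 65.1% of the 900 features ranked next. With matching pairs summed, 55 of 68 units lay below 0. The members' values ran from -1.08 to 0.84 with a median SE of 0.41. On library totals the medians of members and of all features were -0.20 and 0.22. Without acute hypoxic replicate 1 the members' median was -0.38 and 92 of them lay below 0. In that fit edgeR called 0 members, against 0.0712% of all features. Over the fits that left out 1 library the members' median ran from -0.55 to -0.25, the latter without acute control replicate 2. With no count filter, which put 487995 features into the fit, edgeR called 42 members lower and 5 higher, against 0.198% of all features. The absence of calls thus held in every fit with the filter and not in the fit without it. On scaled CPM the acute groups overlapped for all 100 members. The members' median hardly moved, at -0.39, but their lowest edgeR adjusted p went from 0.9996 to 9.44e-20. Why the p-values moved so far was not tested.

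At rank 1 the acute groups overlapped almost fully. TRINITY_DN132_c0_g1 had a lowest, median and highest scaled CPM of 16527, 57217 and 120689 in acute controls, with a mean of 69489 ± 42452 (SD, n = 6). In acute hypoxic fish the values were 5338, 52095 and 92137, with a mean of 51884 ± 34028 (SD, n = 6). The log2 fold change was -0.42 (SE 0.55), smaller than its error. In acute hypoxic replicate 1 the level was 5338, whereas the other 5 fish lay between 26044 and 92137 with a mean of 61193 ± 28238 scaled CPM.

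Ranks 3 to 10 each had an acute log2 fold change between -0.67 and -0.20, with SEs of 0.32 to 0.84. TRINITY_DN691_c3_g1 had the most negative of these, -0.67 (SE 0.46), from 16769 ± 9363 scaled CPM in controls to 10546 ± 3913 in hypoxic fish (SD, n = 6 each). All 71 members of the first correlation group had a value below 0, with a median of -0.52. That group was formed from correlations among these same fish, so these signs are not independent of each other. The second group had a median of 0.03 and the third of 0.46, and 0 members of either were called.

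The post comparison asked whether a difference remained after oxygen had returned. Again 0 members were called by edgeR, as were 0.0% of all features tested, and 0 members were past an unadjusted p of 0.05, against 3.84% of all. DESeq2 called 0, against 0.0107% of all features, with 2 past an unadjusted p of 0.05, against 4.77% of all. The median log2 fold change was -0.18 against -0.01 over all features, and 77 members lay below 0, against 51.9% of all. On library totals the median was -0.03 against -0.04 over all features, and 61 members lay below 0. Leaving out post control replicate 2 or 3 turned the median to 0.04, so its sign rests on these fish. It was -0.34 without post control replicate 4 and -0.31 without replicate 5 or 6. With no count filter edgeR called 17 members lower, against 0.173% of all features, and 3 higher, against 0.0863%.

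TRINITY_DN132_c0_g1 had a lowest, median and highest scaled CPM of 5751, 14811 and 24039 in post control fish, and 8296, 15088 and 16227 in post hypoxic fish. The log2 fold change was -0.13 (SE 0.55), with the hypoxic fish inside the range of the controls. TRINITY_DN35_c0_g2 had a fitted log2 change of 0.94 (SE 0.48, edgeR adjusted p 1.00), and its groups overlapped. The difference between the post and the acute effect was also called for 0 members and 0.0% of all features by edgeR. It had a median of 0.14, against -0.05 over all features and 0.22 over the next 100 by rank. Below 0 lay 26 members, against 53.8% of all and 33.4% of the 900 features ranked next. The shift was therefore not particular to the members. Past an unadjusted p of 0.05 lay 0 members, against 3.5% of all. The members' median rested on single fish: it was 0.016 without post control replicate 4, 0.031 without replicate 5 and 0.034 without replicate 6. It was 0.43 without post control replicate 2 and 0.44 without replicate 3. It was 0.031 without acute control replicate 2 and 0.24 without replicate 5, and 0.22 and 0.26 without acute hypoxic replicates 4 and 5. DESeq2 called 0, against 0.0213% of all features, with 0 past an unadjusted p of 0.05, against 4.15% of all. With no count filter edgeR called 9, against 0.188% of all features.

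Between the time points, some members passed the test. In control fish, post minus acute, edgeR called 10 members lower and 0 higher, that is 10 of 100 against 7.88% of all features tested in either direction. All features were called lower in 3.8% and higher in 4.08%. The share of members called lower was close to the 9.33% of the 900 features ranked next. The members were chosen by their mean over these same fish, so a feature can be a member through its level at 1 time point. For such a feature a change between the time points is partly tied to that choice. Below an unadjusted p of 0.05 lay 36 members, against 22.8% of all and 32.2% of these 900. The median log2 fold change was -0.48, against 0.04 over all features and -0.37 over the next 100 by rank. Below 0 lay 71 members, against 47.3% of all and 56.1% of the 900 ranked next. On library totals the members' median was -0.16 with 57 below 0. Over the fits that left out 1 library it ran from -0.72 to -0.31, the latter without post control replicate 5.

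The count in control fish depended on scaling, the count filter and single libraries. It was 66 with no filter, against 1.7% of all features. With DESeq2 it was 25, 23 of them lower, against 12.3% of all features, 5.81% lower. On library totals, where the median of all features rose to 0.47, edgeR called 14 members lower and 4 higher. All features were then called lower in 1.63% and higher in 12.0%. On scaled CPM these shares were 3.8% and 4.08%, so calls over all features went from nearly even to mostly higher. The count was 6 without acute control replicate 2, 17 without acute control replicate 5, 19 without acute hypoxic replicate 1 and 22 without post control replicate 3. In these 4 fits 5.1%, 7.34%, 9.07% and 8.28% of all features were called. Of the 10 members, 8 form 4 matching pairs, so they stand for 6 units, and 9 belong to the first correlation group.

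TRINITY_DN8233_c0_g1 had the smallest p of the members. Its lowest, median and highest scaled CPM were 596, 1360 and 1993 in acute controls and 259, 393 and 670 in post controls. Of the 6 post controls, 5 lay below every acute control, and the groups overlapped only through post control replicate 1. The log2 fold change was -1.73 (SE 0.37, edgeR adjusted p 0.00476), and over the 24 fits that left out 1 library the adjusted p stayed between 0.00241 and 0.0156.

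The pair TRINITY_DN482_c0_g1 and TRINITY_DN5317_c1_g1 came next. For TRINITY_DN482_c0_g1 the lowest, median and highest scaled CPM were 628, 1901 and 3075 in acute controls and 221, 436 and 782 in post controls. The groups overlapped because acute control replicate 5, the lowest, lay below post control replicates 1 and 2. The log2 fold change was -1.98 (SE 0.45, edgeR adjusted p 0.00671), and that of TRINITY_DN5317_c1_g1 was -1.97 (SE 0.45, adjusted p 0.00711). Both stayed past the threshold without any single library.

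The top pair was also lower in post controls. TRINITY_DN132_c0_g1 fell from 69489 ± 42452 to 14904 ± 7837 scaled CPM (SD, n = 6 each), a fitted log2 change of -2.22 (SE 0.58, edgeR adjusted p 0.0173). TRINITY_DN1186_c1_g2 changed by -2.28 (SE 0.58, edgeR adjusted p 0.0163). The highest post control reached 24039 scaled CPM and the lowest acute control 16527, so the groups overlapped. Leaving out 1 library gave adjusted p-values for TRINITY_DN132_c0_g1 of up to 0.0497. With only the control libraries in the fit the adjusted p was 0.0678.

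TRINITY_DN203_c0_g2 and TRINITY_DN5_c0_g1, another pair, had the most negative log2 fold changes, -2.66 (SE 0.70, edgeR adjusted p 0.0190) and -2.79 (SE 0.69, adjusted p 0.0132). For both, the groups overlapped through acute control replicate 5. That fish had 848 and 767 scaled CPM, against 2912 and 2394 in the highest post controls. TRINITY_DN937_c0_g1 fell from 1941 ± 823 to 787 ± 189 scaled CPM (SD, n = 6 each; edgeR adjusted p 0.0183). Of the pair TRINITY_DN1344_c0_g1 and TRINITY_DN1344_c0_g2, the former fell from 1285 ± 342 to 600 ± 325 scaled CPM (SD, n = 6 each; edgeR adjusted p 0.0290). The latter fell by 1.06 on the log2 scale (edgeR adjusted p 0.0375). By group mean this pair ranked between 72 and 78 in the acute groups and between 110 and 132 in the post groups. For TRINITY_DN1344_c0_g1 the call was lost without acute control replicate 2 or 4 or post control replicate 4, 5 or 6, with adjusted p up to 0.083. TRINITY_DN203_c0_g2, TRINITY_DN5_c0_g1, TRINITY_DN937_c0_g1 and TRINITY_DN1344_c0_g2 were named after their values had been seen, so that all 10 are given.

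Other leading features did not pass the test in control fish. TRINITY_DN145_c0_g1 had a fitted log2 change of -0.41 (SE 0.39, edgeR adjusted p 0.57) in control fish, and TRINITY_DN596_c0_g1 had 0.13 (SE 0.32, adjusted p 0.856). TRINITY_DN13704_c0_g1, whose median was 20328 scaled CPM in acute and 2269 in post controls, had -1.98 with an SE of 0.87 and an edgeR adjusted p of 0.168.

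In hypoxic fish, post minus acute, edgeR called 6 members, 4 lower and 2 higher, against 6.06% of all features in either direction, 3.45% lower and 2.62% higher. That is close to the background. The median log2 fold change was -0.21 against 0.00 over all features, with 66 members below 0 against 50.3% of all. The members' median was -0.12 without acute hypoxic replicate 5. On library totals the members' median was 0.06 and 4 members were called lower and 4 higher, against 1.4% and 3.23% of all features, so the median's sign depends on the scaling. Below an unadjusted p of 0.05 lay 30 members, against 20.8% of all and 24% of the 900 features ranked next.

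This count also rested on the filter, the tool and single fish. It was 55 with no count filter, against 1.31% of all features, and 16 with DESeq2, against 9.96%. It was 18, with 12 lower and 6 higher, without acute hypoxic replicate 1, where 6.82% of all features were called. It was 1 without any 1 of acute hypoxic replicates 4, 5 and 6 and post hypoxic replicates 2, 5 and 6, where 3.66% to 4.96% of all features were called. It was 3 without any 1 of acute control replicate 3, acute hypoxic replicate 3 and post hypoxic replicates 3 and 4, where 3.79% to 5.52% were called.

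TRINITY_DN8233_c0_g1 was again the member with the smallest p. Its lowest, median and highest scaled CPM were 491, 977 and 2204 in acute hypoxic fish and 241, 391 and 733 in post hypoxic fish. Of the 6 post hypoxic fish, 4 lay below every acute hypoxic fish. The log2 fold change was -1.51 (SE 0.37, edgeR adjusted p 0.0147), and the adjusted p stayed under the threshold without any single library, up to 0.0498.

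Of the top pair, TRINITY_DN132_c0_g1 fell from 51884 ± 34028 to 13590 ± 3381 scaled CPM (SD, n = 6 each), a fitted log2 change of -1.93 (SE 0.57, edgeR adjusted p 0.0417). TRINITY_DN1186_c1_g2 had -1.99 (SE 0.58, edgeR adjusted p 0.0389). Acute hypoxic replicate 1, at 5338 scaled CPM, lay below every post hypoxic fish, and the other 5 acute hypoxic fish, from 26044, lay above all of them. Without that fish the adjusted p of TRINITY_DN132_c0_g1 was 0.00863. The call was lost in 12 of the 24 fits that left out 1 library, namely acute control 1, 3 or 4, acute hypoxic 4, 5 or 6, or any 1 post hypoxic fish, with adjusted p up to 0.108. That of TRINITY_DN1186_c1_g2 was lost in 10 of these, with adjusted p up to 0.101. TRINITY_DN5_c0_g1 fell by 2.25 on the log2 scale (SE 0.68, edgeR adjusted p 0.0471), and its partner TRINITY_DN203_c0_g2 had -2.20 and an adjusted p of 0.0568. For TRINITY_DN5_c0_g1, acute hypoxic replicate 1, at 192 scaled CPM, lay below every post hypoxic fish, the lowest of which had 760.

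The pair TRINITY_DN10306_c1_g1 and TRINITY_DN2044_c0_g2 rose. For TRINITY_DN10306_c1_g1 the lowest, median and highest scaled CPM were 402, 499 and 1099 in acute hypoxic fish and 818, 1378 and 1422 in post hypoxic fish. The high acute fish was replicate 1, and the other 5 acute hypoxic fish lay below every post hypoxic fish. The log2 fold change was 1.07 (SE 0.29, edgeR adjusted p 0.0296), and that of TRINITY_DN2044_c0_g2 was 1.06 (SE 0.30, adjusted p 0.0341). In control fish TRINITY_DN10306_c1_g1 had 0.84 (SE 0.29, edgeR adjusted p 0.0778), from 380, 778 and 904 in acute to 792, 1196 and 2244 in post controls. The call in hypoxic fish was lost in 8 of the 24 fits that left out 1 library, those without acute hypoxic replicates 2 to 6 or post hypoxic replicates 2, 5 or 6, with adjusted p up to 0.0763.

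Groups that did not overlap at all were rare. In hypoxic fish 2 members lay lower in every post than in every acute fish, against 1.95% of all features tested, and 0 lay higher, against 1.62%. The 2 were TRINITY_DN1344_c0_g1, with 716 to 1531 scaled CPM in acute and 423 to 672 in post fish, and its partner TRINITY_DN1344_c0_g2. Their edgeR adjusted p-values were 0.0595 and 0.0855, so neither was called. In control fish 0 members were fully separated, against 1.92% of all features higher and 2.0% lower, and in the acute and post comparisons 0 were, against 0.213% higher and 0.108% lower and 0.0335% higher and 0.0487% lower.

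The comparisons of time points in control and in hypoxic fish share no libraries, but they come from a common fit with a common estimate of the spread. Called in both were 4 members, all lower: TRINITY_DN132_c0_g1, TRINITY_DN1186_c1_g2, TRINITY_DN5_c0_g1 and TRINITY_DN8233_c0_g1, which stand for 3 units. Of these, only TRINITY_DN8233_c0_g1 kept its call in hypoxic fish in all 24 fits that left out 1 library. It was the only member called in hypoxic fish without acute hypoxic replicate 4, 5 or 6 or post hypoxic replicate 2, 5 or 6. Over all features tested 1.64% were called lower in both. A log2 fold change of the same sign was found for 89 of the 100, with 63 below 0 in both and 26 above 0 in both. Over all features 73.5% had the same sign, with 35.5% below 0 in both and 37.9% above 0 in both. The difference between these changes is the same contrast as the difference between the post and acute effects, and it was called for 0 members. Each comparison of time points shares libraries with both hypoxia comparisons, so no likeness between those is given.

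**Figure D5:**
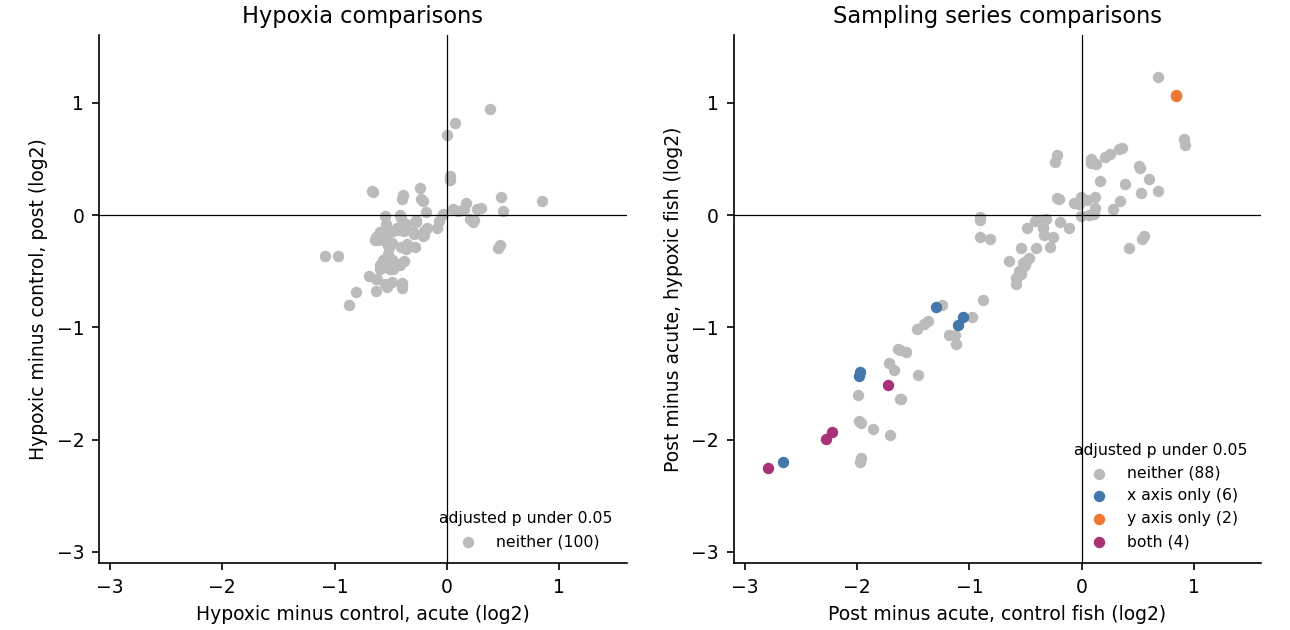
Log2 fold changes of the 100 members, with the post against the acute effect of hypoxia on the left and the change from acute to post in hypoxic against control fish on the right, coloured by which comparisons passed an adjusted p of 0.05. No member passed in a hypoxia comparison, and 10 passed in control fish and 6 in hypoxic fish, with 4 in both, between time points.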

How the data were processed

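Muscle of 24 fish was profiled by sequencing of polyadenylated RNA, and groups and replicate numbers came from the sample titles. The deposited table holds estimated counts, per the file headers. Their totals differ between libraries, so they are not scaled to library size. Trimmomatic, kallisto and RSEM are the tools listed in the submitters' processing notes. Neither versions nor assembly settings or annotation are named there. In post hypoxic replicate 4 every value of the members was whole, whereas in each other library 75% or more of them were not. No source used here says why.

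For the tests the estimates were rounded to whole counts. CPM are counts per 1000000 of the library total, and scaled CPM use TMM factors (edgeR 4.0.16, R 4.3.3). Features were filtered with filterByExpr (minimum count 10, minimum total 15), and the quasi-likelihood test of edgeR used all 24 libraries and a mean for each of the 4 groups. The Benjamini-Hochberg adjustment ran over all 65664 features tested (threshold 0.05). The SE was taken as the absolute log2 fold change over the square root of F. Spread and correlation used log2 scaled CPM with a prior count of 2.

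The members and lists were chosen with earlier results of these data known. Features were named by a rule: the 10 most abundant, the 3 higher and 3 lower with the smallest p among those called in a contrast, the 3 of greatest and 3 of least spread, the 5 steadiest pairs, the 3 features on either side of rank 100, and the extremes of correlation with rank 1. Marker and gene lists could not be used without gene names. Alternatives were DESeq2 (version 1.42.0), other scalings, no filter, fewer libraries, a replicate block, summed pairs and each library left out. The tests were also run on simulated data, and the outcome is not used as support here. Of 60 pairs of libraries within a group, none had counts that agree within sampling noise (chi-square per feature 26.6 to 306). The labels describe each replicate as a section of a fish. No molecular identifiers are named, so counts may include copies of the same molecule.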

Additional observations from a re-analysis of the deposited data

Results flagged for a closer look

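Among 152 groups of 6 values (the fish of a group), 5 held a fish whose gap to its neighbour was a large part of the group's range. Among independent and normally distributed values chance gives such a gap in about 1 of 20 groups. The gaps of the flagged features were taken on scaled CPM without logs. The features here share fish, and acute hypoxic replicate 1 and post control replicate 2 each gave 2 of the 5. The number therefore cannot be judged against chance. TRINITY_DN35_c0_g2 stood at 1680 scaled CPM in acute hypoxic replicate 1, against 345 to 498 in the other 5 fish. TRINITY_DN526_c0_g2 stood at 1780 scaled CPM in the same fish, against 822 to 964. TRINITY_DN10306_c1_g1 stood at 2240 scaled CPM in post control replicate 2, against 792 to 1285 in the other 5 fish, and its pair TRINITY_DN2044_c0_g2 at 2170, against 842 to 1245. TRINITY_DN4975_c2_g1, the last member by rank, stood at 2010 scaled CPM in post hypoxic replicate 6, against 572 to 1072.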

How the results depend on the processing

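The acute, post and difference comparisons called 0 members under every alternative run except that without a count filter, which called 47, 20 and 9 members against 0.198%, 0.259% and 0.188% of all features. Without a filter the time points differed for 66 members in control fish (12 higher, 54 lower), against 1.7% of all features. In hypoxic fish they differed for 55 (11 higher, 44 lower), against 1.31%. The lowest edgeR adjusted p of a member in hypoxic fish was then 9.34e-252, against 0.0147 with the filter. The cause was not tested. In control fish the main 10, against 7.88% of all features, became 25 with DESeq2 (2 higher, 23 lower; 12.3%), 18 on library totals (13.6%), 6 with only the libraries compared (6.95%) and 6 of 68 with matching pairs summed (7.88%). In hypoxic fish the main 6, against 6.06%, became 16 with DESeq2 (2 higher, 14 lower; 9.96%) and 3 of 68 with pairs summed (6.06%). Summing pairs leaves fewer features to count. Leaving out 1 library gave 6 to 22 in control fish and 1 to 18 in hypoxic fish. The median log2 fold change of the members in hypoxic fish turned from -0.21 to 0.0611 on library totals. That of the post comparison ran from -0.338 to 0.0419 over the libraries left out, at 0.0378 without post control replicate 2 and 0.0419 without replicate 3. An SD limit of 0.05 gave 20 matching pairs and a limit of 0.2 gave 46.

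Same-numbered libraries correlated at -0.264 to 0.134 in the acute and -0.158 to 0.433 in the post groups, with 1 and 2 of 6 closest to their own number. With 6 correlations per time point, whether replicate numbers pair the fish cannot be settled. With the replicate block 1 member was called in hypoxic fish (5.2% of all features), 8 in control fish (6.46%) and 0 in the acute, post and difference comparisons. Of the values of named members that passed the test, 281 recomputed ones stayed past the threshold, 55 did not and 0 changed sign. The difference of effects could not be fitted with only the libraries compared, since it uses all of them. At 31085706 counts or more per library, depth limits these abundant features little.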
